A study of Mus musculus with 23 samples.

Results

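The genes described here are the nuclear genes for subunits of the mitochondrial respiratory complexes I to IV and of ATP synthase (complex V), taken from the deposited gene counts by symbol. A row was a member if its symbol began with Ndufa, Ndufb, Ndufc, Ndufs or Ndufv and a digit, was Sdha, Sdhb, Sdhc or Sdhd, or began with Uqcr, Cox4 to Cox8 or Atp5, and if it held at least 230 counts over the 23 libraries. Of 23725 rows, 84 matched the names and 78 also passed the count minimum. The 78 members were 7 core and 28 accessory genes of complex I, 4 genes of complex II, 8 of complex III, 14 of complex IV, 15 of complex V, and 2 genes named for ATP synthase (Atp5s and Atp5sl) that are not core subunits of it.

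RNA was sequenced from mouse embryos at E6.25, shortly after implantation, dissected into epiblast (E), the source of the fetus, and extra-embryonic tissue (ExE). The 3 genotypes were collected: wild type (wt), and carriers of 1 copy (Tet1gt/wt) or of both copies (Tet1gt/gt) of a gene trap in Tet1, whose product oxidises methylated cytosine. Each library was a pool of at least 6 embryos collected from 2 to 3 litters, and the cDNA was amplified before sequencing. There were 4 pools of each tissue and genotype, except that 1 ExE pool of Tet1gt/gt was lost, which left 3. For 3 of the 4 pools of a genotype, E and ExE pools of the same number came from the same litters. Pools are not single embryos, so p-values here measure the spread between pools.

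Oxidative phosphorylation couples electron transfer along the inner mitochondrial membrane to ATP synthesis. Complex I takes electrons from NADH and complex II from succinate. Both pass them to ubiquinone, complex III hands them on to cytochrome c, and complex IV reduces oxygen. Complexes I, III and IV pump protons, and ATP synthase lets the protons back through its membrane ring (Fo) to drive its catalytic head (F1). The remaining subunits of complexes I, III, IV and V are encoded by mitochondrial DNA and were not analysed here. The early post-implantation epiblast is known as a tissue that relies heavily on glycolysis.

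Library totals ran from 4912215 to 9494814 counts. The level of Tet1 itself, in CPM (counts relative to the scaled library total, the unit used below), was 127 to 197 in wt E, 66.7 to 147 in Tet1gt/wt E and 55.3 to 113 in Tet1gt/gt E. In ExE it was 77.1 to 110, 39.3 to 57.1 and 21.5 to 37.8. The lowest values in mutant E belonged to Tet1gt/wt pool 4 and Tet1gt/gt pool 3, which are set apart below. Without these pools Tet1 ranged from 137 to 147 in Tet1gt/wt E and from 69.2 to 113 in Tet1gt/gt E. The 8 epiblast markers summed to 7785 to 10871 CPM over the E libraries and to 2178 to 5009 over the ExE libraries. The 9 extra-embryonic ectoderm markers summed to 97.6 to 569 and 1356 to 2604 CPM, so neither tissue was free of the other's markers. Visceral endoderm markers varied between pools (29.4 to 606 CPM in wt E, 7.88 to 24.3 in Tet1gt/wt E, 24.7 to 308 in Tet1gt/gt E, 13.7 to 244 in wt ExE, 20.2 to 37.2 in Tet1gt/wt ExE and 13.5 to 82.0 in Tet1gt/gt ExE). Maternal decidua markers summed to 225 CPM in ExE Tet1gt/gt pool 3 and to at most 46.8 in any other library. The part of these cells in the results below was not tested. In such bulk libraries, fewer cells of a type and less RNA per cell cannot be told apart.

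In wild-type epiblast the members spanned more than 2 orders of magnitude per kilobase of transcript. Atp5b, which encodes the catalytic beta subunit of F1, stood highest at 949 ± 24.0 CPM per kb (SD, n = 4). Atp5a1, the alpha subunit that forms the F1 hexamer with it, followed at 531 ± 37.1 CPM per kb. Next came the complex III core protein Uqcrc1 with 330 ± 29.5 CPM per kb, the complex IV subunits Cox6a1 with 314 ± 16.9 and Cox4i1 with 313 ± 13.5, and Cox5a with 295 ± 34.1. The SDs of these last 4 overlapped, so their order is not resolved. At the other end were Cox6b2, a testis-type complex IV isoform, with 5.93 ± 4.23 CPM per kb and Atp5s with 3.50 ± 0.949. In wild-type ExE the same genes led: Atp5b had 1018 ± 68.9 CPM per kb, Atp5a1 555 ± 39.3 and Cox4i1 516 ± 94.8.

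The rows left out by the count minimum were mostly the isoforms known from muscle and testis. Cox6a2 and Cox8b held no counts in any library, Cox8c held 10 in all, Cox7b2 11, Cox4i2 65 and Cox7a1 218. The members nearest above the minimum were Cox6b2 with 560 counts, Atp5s with 1076 and Ndufa4l2 with 1295. For a count of 0 in a library, up to 3 counts remain possible, and this covers counting error only.

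The members are short genes for this library type. Their median transcript length was 863 bp, against 2906 bp over the 11985 genes with the same count minimum and a known length, and 76 of 78 were shorter than that median. In 3 libraries the members stood far above the rest: E Tet1gt/wt pool 4, E Tet1gt/gt pool 3 and ExE Tet1gt/gt pool 3. Members took 1.86%, 1.81% and 2.38% of all counts there, against 1.06% to 1.43% in the other 20 libraries. The median member in these 3 libraries lay 1.17, 1.13 and 1.84 above the wt E mean on the log2 scale. Among the other 20 libraries the median member ranged from -0.08 to 0.07 in E and from -0.03 to 0.53 in ExE.

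**Figure D1:**
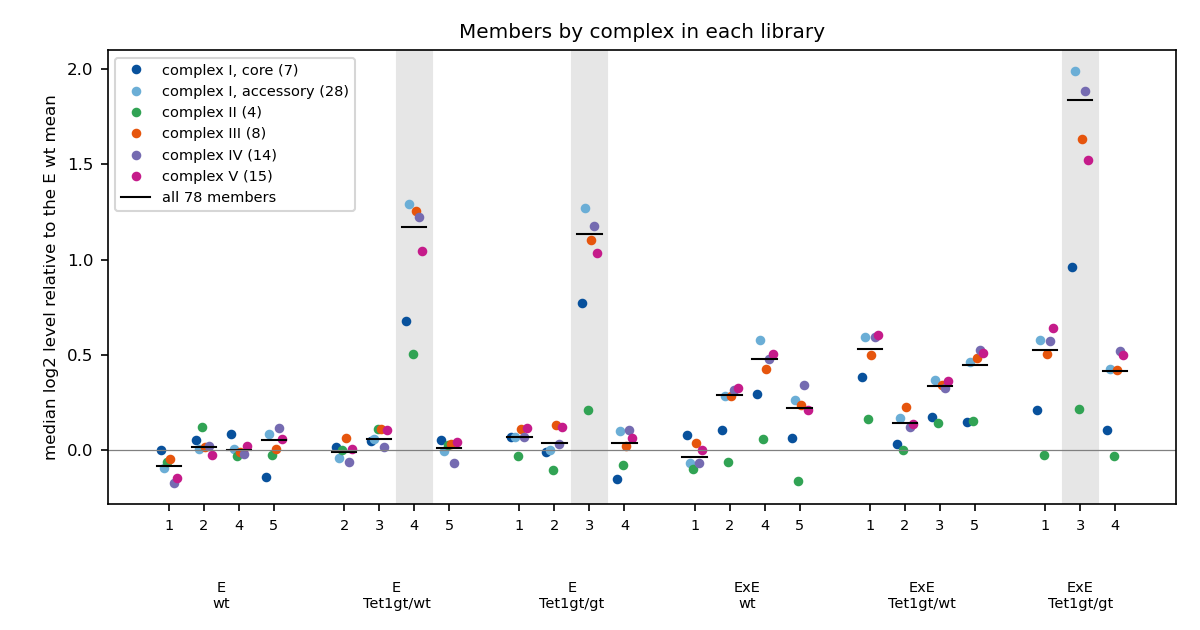
Median log2 level of the genes of each complex in each of the 23 libraries, relative to the mean of the 4 wt E libraries; the x axis gives the libraries by tissue, genotype and pool, and grey bands mark the 3 libraries apart and black lines the median of all 78 members. Within the bands the medians of complex I, III, IV and V genes lie above those of the other pools of the group, complex II is the lowest, and most ordinary ExE libraries lie above the ordinary E libraries.

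Against the other pools of their own group, 74, 75 and 75 of the 78 members were higher in these 3 libraries, with medians of 1.22, 1.10 and 1.38 on the log2 scale. Short members stood out most. Relative to the mean of all libraries of the same tissue, these 3 included, the 30 members under 700 bp had medians of 1.09, 1.09 and 1.54. The 18 members over 1500 bp had 0.43, 0.26 and 0.45. Against the other pools of the group, Spearman's rho between the difference and transcript length was -0.58, -0.53 and -0.53 across the 78 members. This is a description over genes that share a library. Over all genes, the level fell by 0.36, 0.31 and 0.36 (log2) per doubling of transcript length in these libraries. In the other 20 libraries this slope ran from -0.06 to 0.15. The same 3 libraries stood apart in GC content: the level rose by 0.64, 0.69 and 0.72 per 10% of GC, against -0.34 to 0.22 in the others, and the members' rho with GC content was 0.29, 0.45 and 0.53.

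The complex III accessory gene Uqcr10 was at 5.10, 4.10 and 5.69 times the other pools, and Ndufs1, the largest iron-sulphur protein of complex I, at 0.47, 0.60 and 0.30 times. In ExE Tet1gt/gt pool 3 the highest member was Ndufa4l2, a low gene, at 8.95 times. Sdha, the flavoprotein of complex II, was at 0.65, 0.64 and 0.60 times. Both of the lower genes have long transcripts (2626 and 2900 bp). Atp5g1, with 4660 bp the longest member, was an exception at 2.64, 2.66 and 3.00 times. Ndufb2 (2413 bp) was another at 3.47, 3.12 and 3.23 times. Whether the annotated transcripts that gave these lengths are the ones expressed here was not tested. The tissue and genotype results below are therefore given with and without these 3 libraries.

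**Figure D2:**
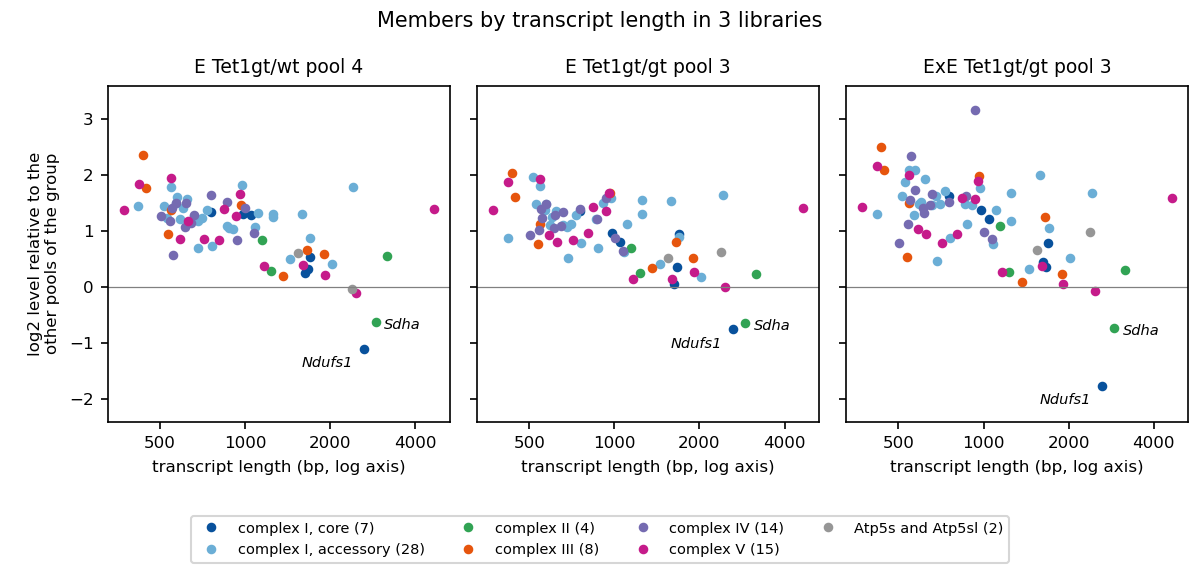
Each point is a member; the x axis is its transcript length in bp (log axis) and the y axis its log2 level in the named library relative to the mean of the other pools of the same group, with colours for the complexes. In all 3 panels the members under 700 bp lie above 0, and Ndufs1 and Sdha are the lowest.

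The question of how tissues differ was asked within each genotype. With all 23 libraries, few members passed an adjusted p of 0.05 (edgeR's quasi-likelihood test, Benjamini-Hochberg adjusted over all 13595 genes tested). In wt, 1 member was called higher in ExE and 1 lower, where 9.28% of all genes were called higher and 7.98% lower (17.3% in either direction). In Tet1gt/wt the counts were 2 and 2 (all genes 12% and 14.9%, 27% in either direction), and in Tet1gt/gt 5 and 0 (all genes 9.12% and 7.66%, 16.8% in either direction). Atp5c1, the gamma shaft of F1, was called higher in each genotype. The median member differed by 0.26, -0.02 and 0.66 (log2, ExE over E) in wt, Tet1gt/wt and Tet1gt/gt. The library set apart in Tet1gt/wt is an E pool, and Tet1gt/gt has 1 in each tissue.

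Without the 3 libraries most members had a higher estimate in ExE, and a minority passed the test. The median member differed by 0.25 in wt, 0.33 in Tet1gt/wt and 0.41 in Tet1gt/gt, while the median of all genes tested was -0.03, -0.01 and -0.04. Of the 78 members, 65, 67 and 69 had a higher estimate in ExE. In wt 17 (21.8%) were called higher and 2 lower, against 13.6% and 12.7% of all genes (26.3% in either direction). In Tet1gt/wt 30 (38.5%) were called higher and 2 lower, against 16.8% and 18.9% (35.6% in either direction). In Tet1gt/gt 25 (32.1%) were called higher and 2 lower, against 10.8% and 9.14% (20% in either direction). The 8 wt libraries were the same with and without the 3 others. All groups share 1 estimate of the spread for each gene, and the log2 difference of Cox4i1 in wt, for example, had an SE of 0.11 without the 3 libraries.

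These counts rest on single pools. In wt, leaving out 1 further library gave between 8 and 25 higher calls: 8 without E pool 1, 10 without ExE pool 4 and 11 without ExE pool 2. In Tet1gt/wt the range was 19 to 32, with 19 without E pool 5 or without ExE pool 1. In Tet1gt/gt, where only 2 ExE pools remained, the count was 14 without E pool 1, 2 or 4, 16 without ExE pool 4 and 0 without ExE pool 1. With E and ExE pools matched by number (replicate block) and all libraries kept, 22, 23 and 38 members were called higher. These were 28.2%, 29.5% and 48.7%, against 13.5%, 15% and 11.1% of all genes. In that fit E pool 4 of Tet1gt/wt, set apart above, has no ExE partner and so does not inform the tissue difference. In Tet1gt/gt the E and ExE pools set apart share number 3 and are matched with each other. With the block and without the 3 libraries the counts were 16, 19 and 14 (20.5%, 24.4% and 17.9%), against 12.4%, 14% and 7.06% of all genes.

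The shift of the set as a whole depended on a correction for transcript length and GC content. With the 3 libraries left out and this correction made, the median member differed by 0.03, 0.14 and 0.24 in wt, Tet1gt/wt and Tet1gt/gt, where all genes had 0.02, 0.06 and 0.04. The calls were then 8 higher and 5 lower in wt (10.3% of members higher, against 16.6% of all genes), 17 and 5 in Tet1gt/wt (21.8% against 20.4%) and 13 and 2 in Tet1gt/gt (16.7% against 14.2%). With this correction the share of members called higher was below or near the share of all genes. The correction removes any trend with length or GC content, so a tissue difference of short genes cannot be told apart from it. With all libraries in wt, Spearman's rho between the members' difference and length was -0.23 before and 0.21 after correction. With GC content it was 0.22 and -0.33. With correction and block together, 8, 7 and 2 members were called higher (10.3%, 9.0% and 2.6%, against 14.9%, 16.9% and 9.28% of all genes) and 4, 6 and 0 lower.

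Without the 3 libraries, 14 members were called higher in ExE in all 3 genotypes: Atp5c1, Atp5d, Atp5o, Cox4i1, Cox6a1, Cox6b1, Cox8a, Ndufa3, Ndufa8, Ndufb11, Ndufb4, Ndufc2, Uqcr10 and Uqcrfs1. Ndufa4l2 and Atp5sl were called lower in all 3. Several of the 14 rest on single pools: leaving out each further library in turn, Uqcrfs1 was called in 1 of 8 fits in wt, Atp5o, Ndufa3 and Ndufb4 in 2 of 8, and Cox8a and Ndufb11 in 4 of 8. Ndufb4 was called in 1 of 7 fits in Tet1gt/wt. In Tet1gt/gt, where some of these fits leave 1 ExE pool, none of the 14 kept the call in every fit. Estimates there ranged from 0.48 to 1.05 for Ndufb4, 0.44 to 0.52 for Cox8a and 0.40 to 0.81 for Cox6a1. They ranged from 0.37 to 0.66 for Atp5o and from 0.49 to 0.80 for Atp5d. With the replicate block added, 11 members were called higher in all 3 genotypes, Cox6b1, Ndufa3, Ndufb11 and Ndufb4 were not among them, and no member was called lower in Tet1gt/gt. The tissue comparisons of the 3 genotypes share no library, though they share 1 estimate of the spread. Of the 14, Atp5c1, Atp5d, Cox4i1, Ndufa8 and Ndufc2 kept the call in each genotype under the length and GC correction, where Sdha was also called in all 3, and so did both lower genes. With correction and block together this held for Atp5d and Sdha, and for neither lower gene in Tet1gt/gt.

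Cox4i1 encodes the common form of subunit 4, the largest nuclear subunit of complex IV and the site where ATP inhibits it (chr8:120668222-120674207, plus strand, GRCm38). Its levels in wt E were 225, 232, 248 and 241 CPM and in wt ExE 305, 414, 473 and 365 CPM. In Tet1gt/wt the ordinary E pools had 227, 228 and 233 CPM, pool 4 had 716, and the ExE pools had 480, 431, 390 and 412. In Tet1gt/gt the ordinary E pools had 301, 260 and 272 CPM, pool 3 had 734, and the ExE pools 1, 3 and 4 had 458, 1255 and 416. Over all genes, 14.3%, 21.5% and 25.8% had every ordinary ExE pool above every ordinary E pool in wt, Tet1gt/wt and Tet1gt/gt. Of the 78 members 12, 40 and 54 did so, and Cox4i1 did in each genotype. The log2 differences without the 3 libraries were 0.71 ± 0.11 (SE, adjusted p = 8.1e-05), 0.89 ± 0.12 (adjusted p = 9.9e-06) and 0.65 ± 0.14 (adjusted p = 0.0026). With the length and GC correction they were 0.35, 0.49 and 0.47.

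Atp5c1 (chr2:10056016-10080510, minus strand) had 339, 323, 315 and 336 CPM in wt E and 426, 477, 457 and 437 in wt ExE. The Tet1gt/wt E pools had 356, 362, 456 and 330 CPM (pool 4 the highest), and the ExE pools 568, 515, 484 and 469. The Tet1gt/gt E pools had 357, 358, 393 and 346 CPM (pool 3 the highest), and the ExE pools 515, 594 and 474. ExE was above E in every genotype even with the 3 libraries kept in, which made Atp5c1 the one member called in all 3 genotypes in that fit. Without them its log2 differences were 0.44 ± 0.08, 0.53 ± 0.08 and 0.47 ± 0.10 (adjusted p = 0.00027, 5.3e-05 and 0.0019).

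Atp5d, the delta subunit that joins the F1 shaft to the ring, had 190, 247, 219 and 190 CPM in wt E and 265, 367, 453 and 299 in wt ExE. Its log2 differences without the 3 libraries were 0.70 ± 0.15, 0.73 ± 0.17 and 0.66 ± 0.20 (adjusted p = 0.0019, 0.0019 and 0.021). Ndufa8, a complex I accessory subunit, had 79.9, 61.2, 67.5 and 72.3 CPM in wt E and 97.1, 111, 128 and 119 in wt ExE. It differed by 0.69 ± 0.14, 0.79 ± 0.15 and 0.69 ± 0.18 (adjusted p = 0.00096, 0.00038 and 0.0083). Ndufc2, a membrane-arm subunit of complex I, had 81.2, 86.2, 90.2 and 88.6 CPM in wt E and 97.4, 129, 133 and 146 in wt ExE. For these 3 genes, too, no wt pool of one tissue overlapped the other tissue. In wt this upward separation held for 12 of 78 members and 14.3% of all genes. The differences of Ndufc2 were 0.53 ± 0.12, 0.64 ± 0.14 and 0.71 ± 0.16 (adjusted p = 0.0031, 0.00089 and 0.0032).

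The largest tissue difference of any member was in the opposite direction and belonged to Ndufa4l2, a hypoxia-inducible relative of the complex IV subunit gene Ndufa4 (chr10:127514967-127517154, plus strand). In wt E it had 5.78, 24.7, 12.6 and 11.8 CPM and in wt ExE 1.68, 1.33, 4.28 and 1.08. The Tet1gt/wt E pools had 11.7, 11.8, 18.7 and 8.01 CPM, and the ExE pools 1.21, 0, 0.11 and 1.07. The Tet1gt/gt E pools had 6.50, 8.44, 23.8 and 8.32 CPM, and the ExE pools 0.54, 9.57 and 1.26. ExE pool 3 of Tet1gt/gt is the only ExE library inside the range of the E libraries. It is one of the 3 set apart and the one with 225 CPM of decidua markers, whose part in this value was not tested. Without those 3, Ndufa4l2 differed by -2.71 ± 0.67 in wt, -4.07 ± 0.75 in Tet1gt/wt and -3.09 ± 0.96 in Tet1gt/gt (adjusted p = 0.0049, 0.00027 and 0.027). With all libraries the Tet1gt/gt difference was -1.68 and did not pass, and with the block and without the 3 libraries it was -3.11 (adjusted p = 0.079). It is a low gene, and ExE pools near 0 leave its fold imprecise.

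Ndufa4 itself, which sits in complex IV although it was first assigned to complex I, differed little. It had 112, 129, 127 and 113 CPM in wt E and 120, 134, 167 and 148 in wt ExE, and the groups overlapped. Its log2 differences were 0.24 ± 0.12 and 0.30 ± 0.13 in wt and Tet1gt/wt, neither called, and 0.48 ± 0.15 (adjusted p = 0.025) in Tet1gt/gt. The Tet1gt/gt call was lost in most fits with 1 further library left out. Of the CPM of both genes, Ndufa4l2 made up 4.93% to 16.1% in wt E and 0.725% to 2.49% in wt ExE. In Tet1gt/wt the shares were 6.67% to 8.83% and 0% to 0.721%, and in Tet1gt/gt 4.85% to 8.02% and 0.281% to 1.91%. So the balance of the pair moved toward Ndufa4 in ExE in every genotype, in every library.

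Atp5sl, which despite its name is known as an assembly factor of complex I, had 47.3, 40.5, 43.3 and 35.1 CPM in wt E and 25.2, 18.5, 36.1 and 22.6 in wt ExE. One wt ExE pool overlapped the E range. Its log2 differences without the 3 libraries were -0.71 ± 0.21, -0.88 ± 0.22 and -0.92 ± 0.27 (adjusted p = 0.015, 0.0035 and 0.021). With the block added, the Tet1gt/gt difference was -0.83 (adjusted p = 0.091). Atp5s, the other gene of that name group, was a low gene at 1.66 to 9.64 CPM over all 23 libraries and was not called in any genotype.

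**Figure D3:**
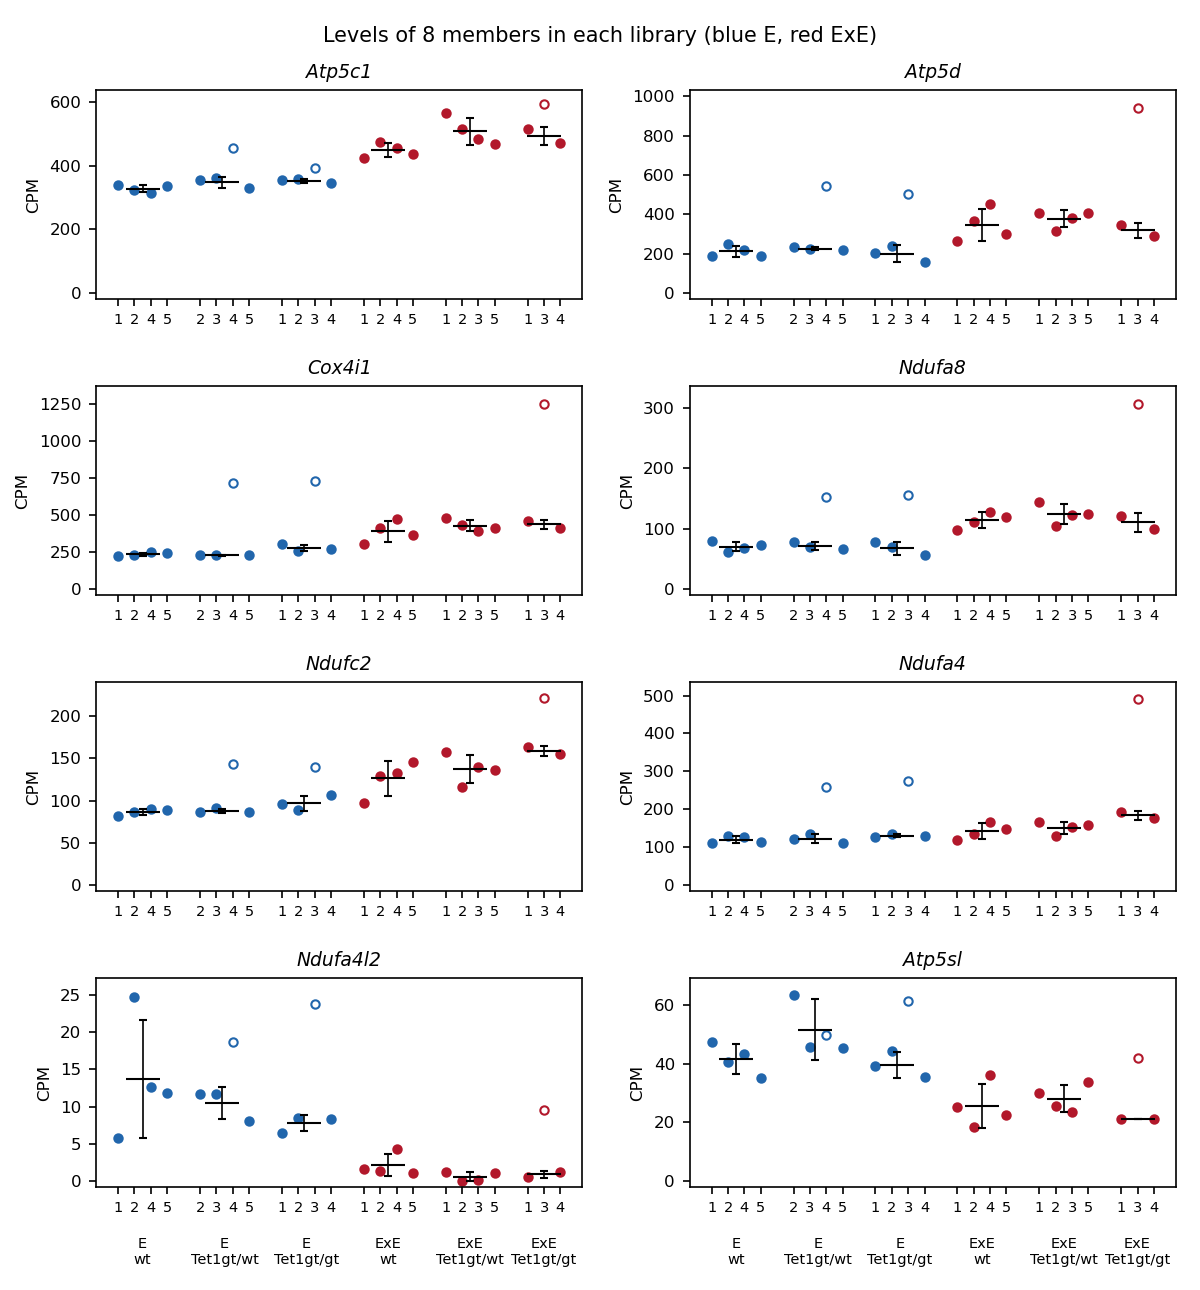
CPM of 8 members in each library (x axis: pools by tissue and genotype, blue E and red ExE); open circles are the 3 libraries set apart, and black bars give the mean ± SD of the filled circles. For Cox4i1, Atp5c1, Atp5d, Ndufa8 and Ndufc2 the filled ExE points lie above the filled E points of the same genotype, for Ndufa4l2 they lie below, and most open circles lie above the rest of their group.

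By complex, without the 3 libraries, complex II had the lowest median of the complexes in each genotype. The counts by complex below stand against the 13.6%, 16.8% and 10.8% of all genes called higher in wt, Tet1gt/wt and Tet1gt/gt. Its 4 genes had median differences of -0.10, 0.10 and 0.03 in wt, Tet1gt/wt and Tet1gt/gt. The iron-sulphur protein gene Sdhb differed by -0.18 ± 0.12, 0.15 ± 0.13 and -0.05 ± 0.15, and the membrane anchor genes Sdhc and Sdhd by -0.23 to -0.14 and -0.06 to 0.11. None of these 3 was called. Sdha was the exception with 0.27 ± 0.11, 0.26 ± 0.12 and 0.46 ± 0.14, called in Tet1gt/gt (adjusted p = 0.022). That call was not kept in every fit with 1 further library left out, where the estimate ranged from 0.25 to 0.64. With the length and GC correction Sdha differed by 0.39, 0.41 and 0.60 and was called in each genotype, and Sdhb was called lower in wt (-0.44). Whether the complexes differ from one another was not tested. Median transcript length was 2065.5 bp in complex II and 1623 bp in the complex I core. It was 747.5 bp in the complex I accessory genes and 755, 631.5 and 838 bp in complexes III, IV and V. The part of length in the order of the uncorrected medians was not tested.

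In complex I, the 7 catalytic core genes had medians of 0.10, 0.15 and 0.14, and the 28 accessory genes 0.26, 0.40 and 0.42. In the core, the ubiquinone-side (Q module) genes Ndufs7 and Ndufs8 were called in wt and Tet1gt/wt. Ndufs7 differed by 0.52 ± 0.17 and 0.57 ± 0.19 there, and Ndufs8 by 0.41 ± 0.13 and 0.54 ± 0.15. With 1 further library left out, Ndufs7 was called in 3 of 8 and 3 of 7 fits, and Ndufs8 in 5 of 8 and 7 of 7. Ndufs3, also of the Q module, was not called (0.30, 0.25 and 0.16). The NADH-binding (N module) genes Ndufv1 and Ndufv2 stayed between -0.05 and 0.15, and Ndufs1 differed by -0.29, -0.38 and 0.09, none called. Among the accessory genes, 5, 13 and 9 of 28 were called higher in wt, Tet1gt/wt and Tet1gt/gt and none lower. Ndufa3 had the largest estimate in Tet1gt/gt, 1.19 ± 0.27, and differed by 0.61 ± 0.21 in wt. Ndufs4, an N module accessory gene, and Ndufb8, a membrane-arm gene, were not called in any genotype (-0.26, -0.11 and -0.05 for Ndufs4 and 0.32, 0.34 and 0.09 for Ndufb8).

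In complex III the medians were 0.26, 0.29 and 0.36, with 3, 2 and 3 of 8 genes called higher. The Rieske iron-sulphur protein gene Uqcrfs1 rose by 0.28 ± 0.10, 0.51 ± 0.11 and 0.50 ± 0.13, and the small accessory gene Uqcr10 by 0.56 ± 0.14, 0.85 ± 0.15 and 0.67 ± 0.18. Of the core proteins, Uqcrc1 differed by 0.20, 0.24 and 0.02 and was not called, and Uqcrc2 was called only in wt (0.27 ± 0.08). The Uqcrc2 call held in 3 of 8 fits with 1 further library left out. Uqcrb had tissue estimates of 0.01, 0.37 and 0.92 ± 0.22 and was called only in Tet1gt/gt (adjusted p = 0.0051). Uqcr10 in Tet1gt/wt moved with the library set apart: it differed by -0.16 with E pool 4 and by 0.85 without it, since that pool had 412 CPM and the other 3 E pools 78.3, 81.5 and 82.1.

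Complex IV had medians of 0.25, 0.34 and 0.49, with 4, 5 and 6 of 14 genes called higher and Ndufa4l2 lower. Beside Cox4i1, the genes Cox6a1, Cox6b1 and Cox8a were called higher in each genotype, by 0.58, 0.74 and 0.63 (Cox6a1), 0.56, 0.74 and 0.69 (Cox6b1) and 0.41, 0.50 and 0.49 (Cox8a). These 3 are the broadly expressed isoforms of their subunits. Their length and GC corrected differences in wt were 0.19, 0.32 and 0.03, none of which was called. Cox7a2 and the supercomplex factor Cox7a2l were not called in any genotype (0.21 to 0.49 and 0.31 to 0.36).

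In complex V the F1 catalytic genes were not called in any genotype. Atp5a1 differed by 0.05 ± 0.07, -0.00 ± 0.08 and 0.09 ± 0.09, and Atp5b by 0.09 ± 0.07, 0.12 ± 0.08 and 0.11 ± 0.09. The shaft genes Atp5c1 and Atp5d rose, as above, while the smallest shaft subunit gene, Atp5e, was called in Tet1gt/wt alone (0.27, 0.48 and 0.55). That call held in 1 of 7 fits with 1 further library left out. In the peripheral stalk, Atp5o rose by 0.37 ± 0.13, 0.54 ± 0.14 and 0.53 ± 0.17, and Atp5h was not called (-0.14, 0.07 and 0.15). Atp5f1 was called in both mutant genotypes (0.24, 0.38 and 0.39). Its Tet1gt/wt call held in 7 of 7 fits with 1 further library left out. Its Tet1gt/gt call was lost whichever further library was left out. Over the 15 genes, 3, 8 and 6 were called higher and none lower, with medians of 0.27, 0.37 and 0.46.

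**Figure D4:**
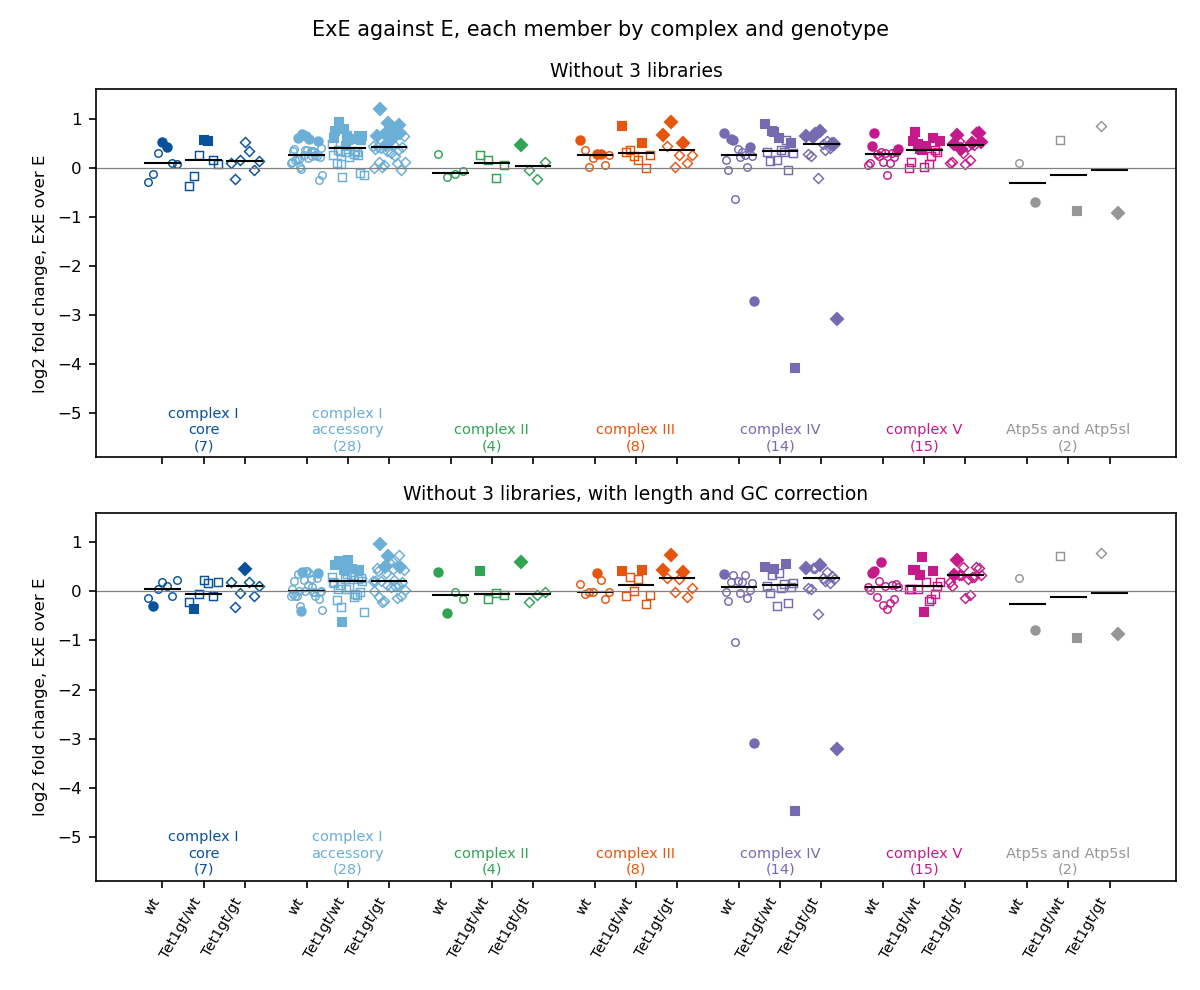
Log2 fold change of ExE over E for each member (y axis), by complex and genotype (x axis; circles wt, squares Tet1gt/wt, diamonds Tet1gt/gt), without the 3 libraries, above without and below with a correction for transcript length and GC content. Filled symbols passed an adjusted p of 0.05 and black lines are medians; with the correction most medians lie nearer 0, while Ndufa4l2 stays lowest.

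The 3 genes of the c ring, Atp5g1, Atp5g2 and Atp5g3, encode the same mature protein and differ in the targeting peptide. Each made up a sizeable share of their summed CPM in every library. In wt E the shares were 27.1% to 28.8% for Atp5g1, 34.7% to 37.9% for Atp5g2 and 34.6% to 37.9% for Atp5g3. In wt ExE they were 28.3% to 30.8%, 31.1% to 36.3% and 35.4% to 40.1%. In Tet1gt/wt the Atp5g2 share was 33.7% to 40.4% in E and 30.5% to 32.4% in ExE, and in Tet1gt/gt 33.0% to 36.4% and 29.4% to 31.4%. Thus the ranges of Atp5g2 did not overlap between the tissues in either mutant genotype, and overlapped in wt. The log2 differences of Atp5g2 were 0.12, 0.02 and 0.08 and those of Atp5g3 0.30, 0.43 and 0.45, of which 1 was called (Atp5g3 in Tet1gt/wt, adjusted p = 0.022). That call held in 3 of 7 fits with 1 further library left out.

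For the other isoform sets 1 gene held nearly all of the signal. Cox4i2, the hypoxia-associated form of subunit 4, made up at most 0.489% of the CPM of Cox4i1 and Cox4i2 in any library. Cox6b2 made up 1.01% to 7.79% of the CPM of Cox6b1 and Cox6b2 over all libraries, and its tissue difference was not called (-0.64 ± 0.66, 0.16 ± 0.71 and -0.21 ± 0.86). Several members, among them the shortest, have processed pseudogenes or near-identical copies, and the sources used here do not say whether counting used strand, so small differences between such genes are uncertain.

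Promoter sequence was available for 66 of the 78 members in RefSeq (GRCm38.p6). The 250 bases before the start were searched on both strands for letters typical of factors known to drive respiratory genes. The palindromic NRF1 element was found in 13 of 66 members (19.7%), in 9.68% of the genes with the same count minimum and in 4.23% of all 27025 genes. CCGGAAG, typical of ETS factors such as GABP, was found in 18.2%, 16.4% and 7.83%, and GGGCGG, typical of SP factors, in 36.4%, 66.6% and 35.4%. GCCATCTTG (YY1) was found in 1.52%, 1.02% and 0.670%, and CCAAT in 43.9%, 41.2% and 37.5%. The ACTACA element, added after these promoters had been looked at, was found in 6.06%, 2.57% and 1.02%. The median number of CpG dinucleotides was 14.5 in the members, 18 in the genes with the same count minimum and 6 in all genes.

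Shown here are promoter stretches outside annotated exons for 4 short subunit genes called higher in ExE in all 3 genotypes without the 3 libraries, 2 with NRF1 letters and 2 with the ACTACA element. Capitals mark these matches, on either strand. Other motifs searched are left in lower case. The sequences run 5′ to 3′ on the strand of the gene, and the stretches are chr5:115348982-115349129 (minus) for Cox6a1, chr16:37654454-37654618 (minus) for Ndufb4, chr7:3617123-3617372 (plus) for Ndufa3 and chr11:4704345-4704594 (minus) for Uqcr10.
Cox6a1: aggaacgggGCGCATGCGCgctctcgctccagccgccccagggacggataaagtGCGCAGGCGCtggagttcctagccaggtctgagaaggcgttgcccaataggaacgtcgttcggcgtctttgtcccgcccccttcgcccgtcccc
Ndufb4: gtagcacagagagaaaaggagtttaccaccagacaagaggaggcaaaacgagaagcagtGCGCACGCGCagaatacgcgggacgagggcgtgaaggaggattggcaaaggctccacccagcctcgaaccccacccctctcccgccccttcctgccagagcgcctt
Ndufa3: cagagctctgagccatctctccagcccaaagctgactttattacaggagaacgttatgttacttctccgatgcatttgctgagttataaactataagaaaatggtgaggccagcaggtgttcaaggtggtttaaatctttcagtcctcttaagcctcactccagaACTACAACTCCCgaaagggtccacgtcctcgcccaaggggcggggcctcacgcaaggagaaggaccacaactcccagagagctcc
Uqcr10: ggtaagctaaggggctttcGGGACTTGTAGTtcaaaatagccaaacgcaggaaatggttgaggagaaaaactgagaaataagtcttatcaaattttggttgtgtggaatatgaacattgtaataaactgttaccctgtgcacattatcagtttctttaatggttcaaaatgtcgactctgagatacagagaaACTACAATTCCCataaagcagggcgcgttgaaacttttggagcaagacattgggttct
A match describes the letters and is not evidence of binding. None of the 4 was called in wt after the length and GC correction.

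Genotype was compared within each tissue. With all libraries, no member was called by edgeR in Tet1gt/gt against wt or Tet1gt/wt against wt in either tissue. Of all genes, 0.0161% were called in Tet1gt/gt E and 0% in the other 3 comparisons. At an unadjusted p under 0.05 there were 1, 0, 50 and 1 members (1.28%, 0%, 64.1% and 1.28%) in Tet1gt/gt E, Tet1gt/wt E, Tet1gt/gt ExE and Tet1gt/wt ExE, where all genes had 4.19%, 2.4%, 7.57% and 4.13%. The median member differed by 0.39, 0.38, 0.79 and 0.13 in the same order. Without the libraries set apart the medians were 0.05, 0.02, 0.17 and 0.12, no member was called, and 3, 0, 12 and 2 members (3.85%, 0%, 15.4% and 2.56%) had an unadjusted p under 0.05, against 7.19%, 4.53%, 8.25% and 6.92% of all genes. All genes then had a called share of 0.0316% in Tet1gt/gt E and 0% in the others. The comparisons of 1 tissue share their wt libraries. DESeq2 on all libraries called 2 members higher in Tet1gt/gt ExE, Atp5e (1.77, adjusted p = 0.0341) and Uqcrb (1.00, adjusted p = 0.0341). That fit kept pool 3, which had 473 CPM of Atp5e against 117 and 95.4 in pools 1 and 4. Uqcrb had 153 CPM in pool 3 against 130 and 84.3. The share of all genes called by DESeq2 is not reported here.

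In Tet1gt/gt E without pool 3, the smallest p belonged to 3 genes. Atp5e had 47.1, 60.9, 56.1 and 57.7 CPM in wt E and 75.4, 71.7 and 68.7 in Tet1gt/gt E (pool 3 had 263), so the ordinary pools did not overlap. The log2 difference was 0.38 ± 0.15 (adjusted p = 0.59). The hinge protein gene of complex III, Uqcrh, differed by 0.31 ± 0.12 and Cox4i1 by 0.23 ± 0.09, both also with an adjusted p of 0.59. In the other direction the smallest p belonged to Ndufa4l2 (-0.83 ± 0.43, adjusted p = 0.73), whose ordinary pools overlapped, and to Ndufb10 (-0.28) and Sdha (-0.15). In Tet1gt/wt E without pool 4, Uqcrc2 had the smallest p of any member (0.17 ± 0.09, adjusted p = 0.998), followed by Atp5sl (0.32) and Atp5g2 (0.19).

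In Tet1gt/gt ExE without pool 3, Uqcrb led. It had 53.6, 56.2, 61.0 and 76.4 CPM in wt ExE and 130 and 84.3 in the 2 ordinary Tet1gt/gt pools, and pool 3 had 153. Both ordinary pools lay above all 4 wt pools, and the first of them was far above the second. The log2 difference was 0.79 ± 0.21 (unadjusted p = 0.0022, adjusted p = 0.57). Cox6c had 77.8, 94.9, 103 and 120 CPM in wt ExE and 155 and 142 in the ordinary Tet1gt/gt pools, with a difference of 0.59 ± 0.19 (adjusted p = 0.57). Of the lower members, Uqcrc1 (-0.22), Ndufb10 (-0.29) and Ndufv1 (-0.17) had the smallest p. Uqcrb was also the member with the smallest p for a Tet1gt/gt effect that differs between the tissues, 0.92 ± 0.28 (unadjusted p = 0.0036, adjusted p = 0.77). No member passed that test with or without the 3 libraries, nor did any gene of the whole table (0%). In Tet1gt/wt ExE the smallest p belonged to Uqcrfs1 (0.31 ± 0.11, adjusted p = 0.63) and Atp5f1 (0.25 ± 0.11, adjusted p = 0.69), and the lowest estimate to Ndufa4l2 (-1.77 ± 1.16). For the Tet1gt/wt effect between tissues it belonged to Sdhb (0.33 ± 0.17, adjusted p = 0.68).

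**Figure D5:**
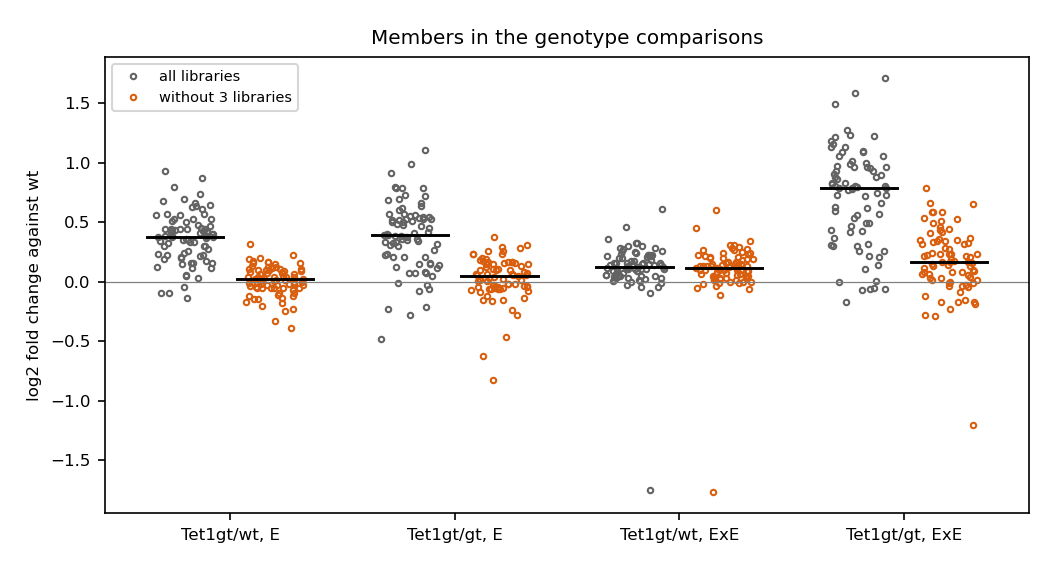
Log2 fold change of each member against wt in the 4 genotype comparisons, with all libraries and without the 3 libraries set apart. Each point is a member, grey with all libraries and orange without the 3, and black lines are medians. The medians with all libraries are 0.39, 0.38, 0.79 and 0.13 (Tet1gt/gt E, Tet1gt/wt E, Tet1gt/gt ExE, Tet1gt/wt ExE) and fall to 0.05, 0.02, 0.17 and 0.12 without them.

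Other genes of the pathway were read from lists, and are given without the 3 libraries in the order wt, Tet1gt/wt and Tet1gt/gt. Of all genes, 13.6%, 16.8% and 10.8% were called higher and 12.7%, 18.9% and 9.14% lower. Of 9 further subunit or carrier genes, 2, 3 and 3 were called higher in ExE and 0, 1 and 0 lower. Cycs, the somatic cytochrome c gene, rose by 0.45 ± 0.10, 0.58 ± 0.10 and 0.81 ± 0.12, and Higd1a, a hypoxia-induced factor of complexes III and IV, by 1.37 ± 0.16, 1.46 ± 0.18 and 1.36 ± 0.20. The testis cytochrome c gene Cyct fell in Tet1gt/wt (-2.38 ± 0.51) and was not called in wt (-1.05 ± 0.46) or Tet1gt/gt (-1.57 ± 0.63). Of the assembly factors, 2, 3 and 1 of 13 genes for complex I, 1, 1 and 1 of 6 for complex III and 2, 2 and 4 of 20 for complex IV were called higher and none lower. The complex III factor gene Bcs1l rose by 0.68, 1.76 and 1.06, and the complex IV factor gene Cox14 by 0.92, 0.99 and 1.24.

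Among 21 genes of mitochondrial import and the inner membrane, 11, 9 and 5 were called higher in ExE and none lower. Slc25a4, the muscle-type ADP/ATP carrier gene, had the largest rise with 2.30 ± 0.22, 2.81 ± 0.25 and 2.13 ± 0.27. The import receptor genes Tomm20 (0.36, 0.43 and 0.48) and Tomm5 (0.69, 0.62 and 0.58) and the channel gene Timm17a (0.68, 0.68 and 0.81) rose in each genotype. Of 23 genes of the TCA cycle and pyruvate dehydrogenase, 8, 10 and 9 were called higher and 2, 3 and 1 lower. Idh3a, a subunit of isocitrate dehydrogenase, rose by 0.47 ± 0.09, 0.75 ± 0.10 and 0.94 ± 0.11. Of the kinases that switch off pyruvate dehydrogenase, Pdk1 rose by 0.68, 0.98 and 0.90, and Pdk3 fell by 1.63, 1.82 and 1.09 on the log2 scale.

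Of 14 tested regulators of mitochondrial biogenesis, 3, 3 and 3 were called higher and 1, 0 and 0 lower. Those that rose were the orphan nuclear receptor genes Esrrb, which is itself an extra-embryonic ectoderm marker (4.65, 5.63 and 4.90), and Esrra (1.25, 2.44 and 1.47), and the mitochondrial DNA polymerase gene Polg (2.45, 3.14 and 2.20). Gabpa, a subunit of the ETS factor GABP, fell in wt (-0.69 ± 0.16) and was not called in the other genotypes. Of 76 mitochondrial ribosomal protein genes 15, 22 and 12 were called higher, and of 84 cytosolic ones 3, 13 and 2. With the length and GC correction, 16.6%, 20.4% and 14.2% of all genes were called higher and 11.6%, 17.3% and 8.42% lower. Higher and lower counts were then 7, 6 and 4 and 0, 0 and 0 for import, and 6, 9 and 9 and 1, 3 and 1 for the TCA cycle. For the further subunits and carriers they were 2, 3 and 2 and 3, 2 and 1. For the regulators they were 3, 4 and 3 and 1, 0 and 0, for mitochondrial ribosomal genes 13, 16 and 10 and 5, 5 and 1, and for cytosolic ones 1, 6 and 1 and 3, 3 and 0.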

How the data were processed

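The deposited values are raw counts of reads per gene in 23 libraries. The labels' protocols describe pools of dissected tissue and SMARTer cDNA amplification. The submitters' processing notes name FastX 0.0.13, cutadapt 1.7.1, ShortRead 1.16.3, TopHat2 2.0.12 and mm10/GRCm38. For the counting program, its annotation and its use of strand, nothing is stated in the sources used here. Groups came from the labels, and totals were 4912215 to 9494814 counts.

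Counts were fitted with edgeR 4.0.16 (R 4.3.3, limma 3.58.1): filterByExpr with a minimum count of 10 and a minimum total of 15, TMM scaling, the quasi-likelihood test, and Benjamini-Hochberg adjustment over all genes with a threshold of 0.05. Tissue was compared in 1 fit over all groups, and genotype within each tissue. All 78 members passed the filter. The scripts were tested on simulated data. Alternatives were DESeq2 1.42.0, RLE scaling, no filter, each library left out, the 3 libraries left out, a block for pool number, and a spline correction with 4 degrees of freedom for transcript length and GC content. Length and GC content came from the best supported GENCODE M21 transcript, found for 98.5% of symbols and for all 78 members. Several alternatives that combine these with leaving out the 3 libraries were chosen after seeing the data.

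The main tissue fits did not pair pools, and the block for pool number was the alternative that does. The labels tie E and ExE pools of the same number to the same litters in 3 of 4 cases. Their deviations from the group means correlated with r from -0.04 to 0.46 (median 0.07, 10 pairs), against -0.34 to 0.11 (median -0.02, 34 pairs) for other numbers. Members and gene lists were chosen with earlier results of these data known. Genes named were the isoform sets, the complex I core, complex II and the members with the largest called tissue differences. To these came the 3 members of smallest p in each direction of the genotype comparisons. A further 6 genes (Atp5e, Uqcrh, Uqcrb, Ndufs4, Ndufb8 and Cox6c) had been named earlier, with results of these data known. Other members were named after their values were seen. Not every value that this rule names is reported here.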

Additional observations from a re-analysis of the deposited data

Results flagged for a closer look

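In groups of 4 pools, 1 pool lay far from the other 3 in 21 of 85 groups tested. Chance marks about 1 in 20 of independent groups, but these reuse the same libraries for overlapping sets of genes. The 21 therefore cannot be set against that share. Most were the 2 E pools set apart. On the log2 scale relative to the wt E mean, E Tet1gt/wt pool 4 had medians of 1.17 over all members, 0.68 for the complex I core, 1.29 for complex I accessory genes, 1.25 for complex III, 1.23 for complex IV and 1.05 for complex V. E Tet1gt/gt pool 3 had 1.13 over all members, 1.27 for complex I accessory genes, 1.10 for complex III, 1.18 for complex IV and 1.04 for complex V.

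Among single members, E Tet1gt/wt pool 4 stood apart with 544 CPM of Atp5d, 716 of Cox4i1, 153 of Ndufa8, 143 of Ndufc2 and 258 of Ndufa4. E Tet1gt/gt pool 3 did so with 734 CPM of Cox4i1, 273 of Ndufa4 and 23.8 of Ndufa4l2. Outside these pools, complex II in ExE Tet1gt/wt pool 2 had a median of 0.001, below the other 3 pools, and Sdha in wt E pool 2 had 386 CPM, above the other 3.

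Of the rows under the count minimum, which entered no comparison, Cox4i2 reached 18 counts in 1 library, Cox7a1 31 and Cox8c 4, above the 3 counts that a count of 0 allows.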

How the results depend on the processing

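Counts below are members called higher and lower in ExE. In wt they were 17 and 2 without the 3 libraries, 16 and 2 with RLE added and 19 and 2 with DESeq2 added. With all libraries they were 2 and 2 with DESeq2. With the correction they were 5 and 4 (median 0.035), and 8 and 5 without the 3 libraries (median 0.030). In Tet1gt/wt the higher calls were 30, 29 and 30 without the 3 libraries (edgeR, RLE, DESeq2), and the correction gave 8 and 4, or 17 and 5 without the 3 libraries. In Tet1gt/gt the counts were 25 and 2, 23 and 2, and 26 and 2 in the same order, 12 and 2 with the correction, and 13 and 2 with both. DESeq2 on all libraries called 1 lower. The cause of these changes was not tested.

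With the replicate block, which pairs pools by number, the counts were 22 and 2 in wt, 23 higher in Tet1gt/wt, and 38 and 1 in Tet1gt/gt. Without the 3 libraries and with the block they were 16 and 2, 19 higher and 14 higher. With the correction added to both they were 8 and 4 (median 0.033), 7 and 6, and 2 higher. The 3 pools whose partner is missing give the block no information on tissue. They are Tet1gt/wt E pool 4, which is one of the libraries set apart, Tet1gt/wt ExE pool 1 and Tet1gt/gt E pool 2. Between genotypes the numbers are not stated to pair pools: r was -0.35 to 0.20 for 16 same-numbered pairs and -0.29 to 0.53 for 72 others.

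In Tet1gt/wt, 32 members went from a lower estimate to a higher one without the 3 libraries, and 1 the other way. Of the named genes, 3 did so and were called. Atp5g1 had 0.37 without the 3 libraries, 0.34 with RLE or DESeq2 added, 0.70 with the correction and 0.62 with correction and block. Its corrected values rest on the annotated length of 4660 bp. Atp5e had 0.48, and 0.45 with DESeq2. Uqcr10 had 0.85 without the 3 libraries, 0.76 with the block, 0.75 with both, 0.83 with RLE or DESeq2 and 0.41 with the correction. Of 6058 values of single genes, 5710 stayed on their side of the threshold (625 values not past it changed sign), 29 lost the call, 306 gained one and 13 reversed.

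Leaving out each pool in turn with all other libraries kept, higher calls ranged from 1 to 2 in wt, 2 to 5 in Tet1gt/wt (5 without E pool 4) and 1 to 43 in Tet1gt/gt (43 without E pool 3, 10 without ExE pool 4). Lower calls ranged from 0 to 2 in wt (0 without E pool 2, ExE pool 2 or ExE pool 5), 1 to 2 in Tet1gt/wt and 0 to 2 in Tet1gt/gt. The medians ranged from 0.18 to 0.35, -0.14 to 0.36 and 0.05 to 1.03. Without the 3 libraries, higher calls ranged from 8 to 25, 19 to 32 and 0 to 16, lower calls from 1 to 2, 2 to 3 and 0 to 2, and medians from 0.16 to 0.33, 0.27 to 0.39 and 0.35 to 0.44.

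The genotype comparisons and their differences between tissues gave 0 to 0 calls when each pool was left out. DESeq2 on all libraries called 2 higher in Tet1gt/gt ExE. There the median was 0.17 without the 3 libraries, 0.18 with RLE or DESeq2 added, 0.28 with the correction and 0.16 with both, and 0.17 to 1.01 leaving out each pool (0.17 without ExE pool 3). The other medians ranged from 0.05 to 0.51 in Tet1gt/gt E (-0.0066 without the 3 libraries and with the correction), 0.02 to 0.50 in Tet1gt/wt E and 0.04 to 0.19 in Tet1gt/wt ExE. For the difference between tissues they ranged from -0.22 to 0.75 in Tet1gt/gt (-0.22 without ExE pool 3) and -0.40 to 0.10 in Tet1gt/wt (0.10 without E pool 4, and 0.10 without all 3 libraries). Low genes such as Ndufa4l2 and Cox6b2 are limited by depth.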
